A study of Mus musculus and Rattus norvegicus with 51 samples.

Results

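The genes described here are 10 members of the Notch pathway, taken as a set list and followed through every group of a study of HMGB1 in liver fibrosis. They are 4 receptors (Notch1, Notch2, Notch3 and Notch4), 3 ligands (Jag1, Jag2 and Dll4) and 3 transcriptional targets (Hes1, Hey1 and Heyl). The liver tables list 24421 and 24982 genes, all 10 members among them, and 9 and 10 members had enough counts to be tested. The table of cultured cells lists 17327 genes and 9 members (not Jag2), of which 7 were tested.

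RNA was sequenced from HSC-T6, a rat hepatic stellate cell line, and from whole livers of mice labelled male. HMGB1 is a nuclear protein that acts as a danger signal once outside the cell, and the study used forms of it labelled [H], [O] and [SO3]. HSC-T6 cells with the genotype label WT received bovine serum albumin (BSA) or 1 of these forms for 6 h, with 3 libraries in each of the 4 groups. A first set of WT livers held 3 libraries per group: CCl4 for 4 weeks with BSA, [H] HMGB1 or [O] HMGB1 (called fibrosis livers here), and regression for 1 week with BSA, [SO3] HMGB1 or an HMGB1 antibody (resolution livers). A second set compared MO (3 livers per group) with CCl4 (4 livers per group) at 4 weeks in WT mice, in Hmgb1ΔHepΔMye mice given WT HMGB1, and in Hmgb1ΔHepΔMye mice given Δ[O] HMGB1. The last 4 of these groups all carry the Hmgb1 deletion and are called deletion livers here. The labels spell out neither MO nor ΔHepΔMye, and they give no ages. The submitters' name for the second set includes AAV8, but the labels do not say how HMGB1 was given or which groups AAV8 covers. CCl4 is a hepatotoxin that, given repeatedly, scars the liver. HSC-T6 is a single cell line, so its libraries are not separate animals. The labels do not say whether libraries of 1 group came from separate cultures, so what the p-values measure is the spread of these libraries, which may be technical.

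Notch receptors sit in the plasma membrane and bind Jagged and Delta-like ligands on neighbouring cells. Binding exposes the receptor to cleavage by ADAM proteases and then by gamma-secretase, which frees the intracellular domain. That domain enters the nucleus, joins the DNA-binding protein Rbpj and the Mastermind-like coactivators, and switches on genes of the Hes and Hey families, which encode transcriptional repressors. In the liver the pathway is known for its part in bile duct formation, in the sinusoidal and arterial endothelium, and in the activation of hepatic stellate cells. Notch3 is best known from vascular smooth muscle and pericytes, and Notch4 and Dll4 from endothelium.

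In GRCm38, with GENCODE vM21 gene models, the receptors lie at chr2:26457903-26516663 on the minus strand (Notch1), chr3:98013527-98150361 on the plus strand (Notch2), chr17:32120820-32166852 on the minus strand (Notch3) and chr17:34564268-34588503 on the plus strand (Notch4). Jag1 lies at chr2:137081456-137116644 (minus), Jag2 at chr12:112907819-112929776 (minus) and Dll4 at chr2:119325784-119335962 (plus). The targets lie at chr16:30064384-30067796 (Hes1, plus), chr3:8663359-8667256 (Hey1, minus) and chr4:123233556-123249875 (Heyl, plus). All are protein-coding genes. Transcripts on the opposite strand cover 7.50% (0610009E02Rik) and 2.91% (Gm13568) of the exon bases of Notch1, 6.03% of Notch3 (Gm17276) and 5.56% of Dll4 (Gm14207). Gm42820 covers 5.02% of Notch2 on the same strand. The strand setting of the counting is not given in the sources used here, so reads in these stretches cannot be assigned to 1 gene with certainty.

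Promoter sequence was found in the RefSeq table (GRCm38.p6) for 7 of the 10 members, and none was found for Hes1, Hey1 or Heyl. The 250 bases before the start are shown for 3 receptors, because Notch3 and Notch2 were higher in CCl4 livers of WT mice and Notch4 was the receptor with no match to any motif searched. The windows are chr3:98013288-98013537 (plus strand), chr17:32166891-32167140 (minus strand) and chr17:34564045-34564294 (plus strand), each printed 5′ to 3′ on the gene's strand with GC boxes (GGGCGG, or CCGCCC where the match is on the other strand) in capitals. The RefSeq starts of Notch2 and Notch4 lie downstream of the GENCODE starts, so the last bases of these windows fall within the GENCODE gene.
Notch2: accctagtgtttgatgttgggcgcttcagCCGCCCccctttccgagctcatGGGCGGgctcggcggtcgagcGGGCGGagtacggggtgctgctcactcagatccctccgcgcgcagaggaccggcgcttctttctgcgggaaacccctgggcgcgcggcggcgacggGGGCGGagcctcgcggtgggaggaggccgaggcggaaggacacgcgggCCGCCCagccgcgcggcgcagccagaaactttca
Notch3: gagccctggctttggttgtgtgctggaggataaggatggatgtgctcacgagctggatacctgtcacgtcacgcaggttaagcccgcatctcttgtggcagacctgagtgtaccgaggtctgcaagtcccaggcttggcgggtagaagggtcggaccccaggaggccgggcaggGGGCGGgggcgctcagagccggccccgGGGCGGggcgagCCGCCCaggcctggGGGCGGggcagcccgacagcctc
Notch4: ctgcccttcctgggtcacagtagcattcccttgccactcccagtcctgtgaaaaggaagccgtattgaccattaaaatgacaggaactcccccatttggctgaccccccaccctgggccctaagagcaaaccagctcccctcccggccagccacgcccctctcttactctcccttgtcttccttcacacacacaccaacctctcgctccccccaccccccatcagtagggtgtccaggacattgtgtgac
The Notch2 window held 5 GC boxes and the Notch3 window 4, against 0 in Notch4. Among the members not shown, Notch1 and Jag2 held 5 each (in Jag2 a pair of them overlapped), Dll4 held 2 and Jag1 held 0. The windows of Notch1 (chr2:26503823-26504072) and Jag2 (chr12:112929496-112929745) lie wholly within the GENCODE genes given above, and that of Jag1 lies partly within. Of 32851 promoter windows of the same length, 32.7% held at least 1. On both strands, none of the 7 windows held the letters TGGGAA of the Rbpj site (present in 21.6% of all windows), CACGTG of the E box (6.02%), TGANTCA of an AP-1 site (6.75%) or a match to an NF-kB consensus (1.41%). These are matches of letters and not measured binding sites.

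Depth was 11752700 to 16981300 counts per library in the cells, 8355710 to 16327100 in livers of the first set, and 22598600 to 39323100 in those of the second. Levels are in CPM, the counts of a gene relative to the depth of its library, scaled by TMM, a correction for library composition. They were set within each table only. Differences are log2 fold changes ± SE from an edgeR quasi-likelihood fit over all genes of a table, and genes with a Benjamini-Hochberg adjusted p under 0.05 are referred to as called. HSC-T6 libraries carried high levels of all 8 activated stellate cell markers (summed 44621 to 65092 CPM, led by Col1a1 and Col3a1). Hepatocyte markers summed to 0.306 to 2.22 CPM there and endothelial markers to 29.8 to 39.9 CPM, mostly Egfl7 and Tek, while Kdr had 0 counts in all 12 libraries. Hmgb1 in whole liver was 72.8 to 77.3 CPM in WT livers with MO, 63.9 to 74.7 CPM in deletion livers with WT HMGB1 and MO, and 131 to 215 CPM in deletion livers with Δ[O] HMGB1 and MO. Reads of the supplied HMGB1, of the deleted gene and of cells outside the deletion cannot be told apart in these counts, so they do not check the deletion. Hmgb1 was lower with CCl4 than with MO in the deletion livers with Δ[O] HMGB1 (-1.21 ± 0.21, adjusted p = 0.00034).

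In HSC-T6 cells, the receptor Notch1 rose and the target Hey1 fell within 6 h of [O] or [SO3] HMGB1. The ligand Jag1 and the receptor Notch3 went in opposite directions with these forms, Jag1 rising and Notch3 falling with [O]. The target Hes1 and the receptor Notch2 rose with [SO3]. With [H] HMGB1 no member was called. The 3 forms were compared with the same 3 BSA libraries, so their differences from BSA are not independent of each other.

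Notch1, a receptor, stood at 2.11, 1.92 and 1.71 CPM in the 3 BSA libraries. It stood at 5.81, 5.21 and 4.31 CPM with [O] and at 7.35, 5.53 and 8.13 CPM with [SO3]. Every [O] and [SO3] library was above every BSA and [H] library (with [H], 2.42, 1.86 and 2.48 CPM). The log2 difference from BSA was 1.41 ± 0.20 for [O] (adjusted p = 1.9e-06) and 1.86 ± 0.18 for [SO3] (adjusted p = 3.5e-09).

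Notch2 stood at 659, 625 and 582 CPM with BSA, 655, 611 and 600.3 CPM with [O] and 709, 687 and 806 CPM with [SO3]. The [SO3] libraries lay above the BSA libraries by a small margin (0.24 ± 0.06, adjusted p = 0.0020), while the [O] libraries overlapped them (-0.00 ± 0.06, adjusted p = 0.99). Notch3 was 15.7, 14.6 and 13.5 CPM with BSA, 13.5, 11.9 and 11.7 CPM with [O] and 16.7, 16.9 and 18.5 CPM with [SO3]. The highest [O] library lay just below the lowest BSA library, and the [SO3] libraries were all higher. Notch3 was thus slightly lower with [O] (-0.24 ± 0.09, adjusted p = 0.033) and slightly higher with [SO3] (0.25 ± 0.09, adjusted p = 0.015). The [O] call of Notch3 was lost with DESeq2 (adjusted p = 0.10) and without BSA replicate 1 (0.16), BSA replicate 2 (0.070), [O] replicate 2 (0.11) or [O] replicate 3 (0.11). Its [SO3] call was lost without BSA replicate 3 (adjusted p = 0.068) or [SO3] replicate 3 (0.073). Notch4 was low in every group (0.816 to 1.54 CPM with BSA), with overlapping libraries and adjusted p of 0.75 for [O] and 0.96 for [SO3].

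Jag1, a membrane ligand, stood at 36.5, 35.3 and 37.5 CPM with BSA and 38.3, 35.3 and 36.5 CPM with [H]. It was 42.7, 41 and 43.7 CPM with [O] and 26.6, 28.5 and 30.0 CPM with [SO3]. The [O] libraries all lay above the BSA libraries and the [SO3] libraries all below them, with differences of 0.22 ± 0.06 (adjusted p = 0.0033) and -0.36 ± 0.06 (adjusted p = 1.5e-05). Dll4, the other ligand listed, had 1 count in the 12 libraries together. The limit that 3 counts set for it was 0.0625 CPM over the [H] libraries, so only levels above such limits were detectable. That limit covers counting only, because how the rat reads met the mouse build named for these libraries is not stated. The same holds for other genes without counts in the cells. Jag2 was not among the genes of the cell table.

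Hey1, a target repressor, was 3.81, 4.47 and 5.3 CPM with BSA and 5.02, 4.46 and 4.34 CPM with [H]. It was 0.612, 0.70 and 0.579 CPM with [O] and 1.3, 1.77 and 1.92 CPM with [SO3]. The [O] libraries were lowest, the [SO3] libraries lay between, and neither overlapped the BSA or [H] libraries. Against BSA, Hey1 differed by -1.42 ± 0.18 with [SO3] (adjusted p = 2.2e-07) beside -2.81 ± 0.23 with [O] (adjusted p = 1.3e-10).

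Hes1, the other target repressor with enough counts, was 5.44, 4.12 and 4.19 CPM with BSA and 4.77, 4.58 and 3.86 CPM with [O], which overlapped (-0.07 ± 0.15, adjusted p = 0.76). With [SO3] it was 9.52, 10.4 and 10.9 CPM, above every library of the other groups (1.16 ± 0.13, adjusted p = 3.6e-08). So with [SO3] Hes1 rose while Hey1 fell. Heyl had 18 counts in the 12 libraries together and was not tested.

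With [O], 4 of 7 tested members were called, 2 higher and 2 lower, beside 43.9% of all 10140 genes tested. With [SO3], 6 of 7 were called, 4 higher and 2 lower, beside 63.3% of all genes. With so much of the transcriptome called, these counts do not set the Notch genes apart. For [H] the background was 0.799%, and 0 of 7 members were called by edgeR or by DESeq2. At an unadjusted p under 0.05 there was 1 member (Notch2, 0.16 ± 0.06, adjusted p = 0.19), beside 16.9% of all genes. Macrophage markers summed to at most 3.71 CPM and cholangiocyte markers to at most 3.73 CPM in any library, but contractile and stellate cell markers moved as well. Of the vascular smooth muscle and pericyte markers tested, 2 of 7 rose and 2 fell with [O] (sum 1082 to 1120.2 CPM against 1023 to 1035 CPM with BSA), and 3 rose and 0 fell with [SO3] (sum 1026 to 1055 CPM). Rgs5, of the same list, had 0 counts. Of 8 activated stellate cell markers, 3 rose and 2 fell with [O], and 0 rose and 7 fell with [SO3], where their sum was 44621 to 47767 CPM against 61489.9 to 65092 CPM with BSA. Of 4 quiescent stellate cell markers tested, 3 rose and 0 fell with [O] and 2 rose and 2 fell with [SO3], with sums of 635 to 658 and 597 to 604 CPM against 621 to 682 CPM with BSA. The T cell list summed to 1283 to 1329 CPM with BSA, nearly all of it Thy1, which fibroblasts also carry (Cd3e, Cd8a and Cd247 had 0 counts in all 12 libraries), and to 1194 to 1197 CPM with [O] and 1213 to 1244 CPM with [SO3], where Thy1 fell (-0.12 and -0.09). Whether these bear on the Notch genes was not tested.

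**Figure D1:**
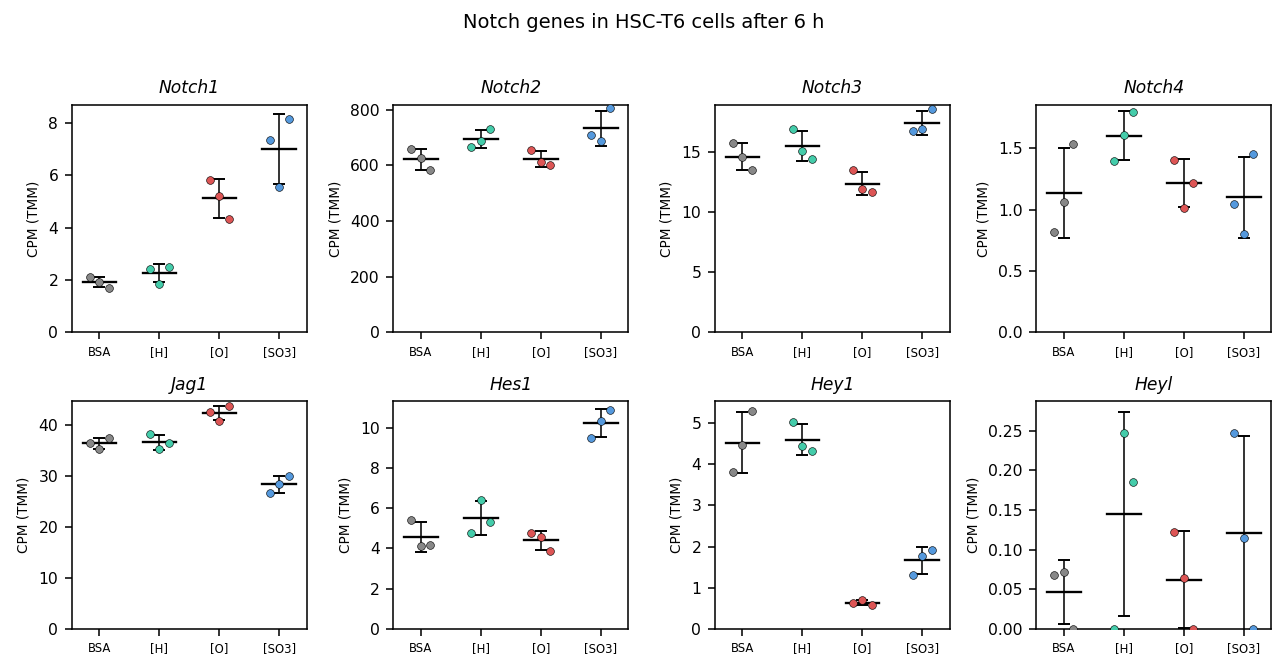
CPM (TMM scaled, linear axis from 0) of 8 Notch genes in HSC-T6 cells given BSA, [H], [O] or [SO3] HMGB1 for 6 h. Each point is a library, the bar is the mean and the whisker 1 SD over 3 libraries, stopped at 0 for Heyl. Hey1 lies between 0.579 and 0.700 with [O] and between 3.81 and 5.30 with BSA, and Hes1 is highest with [SO3].

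The direct comparison of [SO3] with [O] called 6 of 7 members, beside 59.2% of all genes. Hes1 (1.22 ± 0.13, adjusted p = 9.1e-09) and Hey1 (1.39 ± 0.27, adjusted p = 9.8e-05) were higher with [SO3] than with [O], as were the receptors Notch3 (0.49 ± 0.09), Notch1 (0.45 ± 0.14) and Notch2 (0.24 ± 0.06). Jag1 was lower (-0.58 ± 0.06, adjusted p = 5.1e-09). Notch4 did not pass (adjusted p = 0.67). The Notch1 call was lost without [O] replicate 3 (adjusted p = 0.061) or [SO3] replicate 3 (0.068).

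Of 44 further pathway genes, 34 were tested in the cells. With [O], 13 were higher and 4 lower, beside 23.7% of all genes higher and 20.2% lower (median log2 difference 0.05, and -0.01 over all genes). Adam17, a protease that cuts cell-surface proteins, went from 93.3 ± 4.25 to 231 ± 7.15 CPM (mean ± SD, n = 3), a difference of 1.31 ± 0.04 (adjusted p = 2.6e-18). The gamma-secretase subunit Psen2 (0.51), the Deltex genes Dtx4 (1.01) and Dtx2 (0.47) and the coactivator Maml3 (0.44) were also higher. Lower were Hey2 (-0.87 ± 0.13), a target of the same family as Hey1, and Lfng (-0.61), which adds sugars to Notch receptors and changes their ligand preference. Rbpj, the DNA-binding partner, rose from 271 ± 4.1 to 355 ± 8.77 CPM. It is named here for its role and not by size, having been picked after its values were seen.

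With [SO3], 9 of the 34 were higher and 13 lower, beside 31.1% and 32.2% of all genes (median -0.07, and -0.02 over all genes). The largest differences were falls of Sox9, a transcription factor and Notch target in bile duct cells (-1.51 ± 0.10, from 25.3 ± 3.8 to 8.89 ± 0.671 CPM), Maml3 (-1.14 ± 0.10), Neurl1b (-1.11 ± 0.18), Dtx4 (-1.06 ± 0.10) and Lfng (-0.97 ± 0.07). Numbl, of the Numb family of Notch inhibitors, rose (0.77 ± 0.06), and Hes6 fell (-0.46). Between the forms, [SO3] against [O], 5 were higher and 17 lower, beside 29.1% and 30.0% of all genes (median -0.15, all genes -0.00). Dtx4 (-2.07 ± 0.09), Maml3 (-1.57), Sox9 (-1.55), Neurl1b (-0.94) and Adam17 (-0.94) were lower with [SO3], and Hey2 (1.28 ± 0.12) and Numbl (0.62) were higher. Nrarp, a target that damps Notch signalling, was lower (-0.63), a call lost with DESeq2 (adjusted p = 0.12) and without [O] replicate 3 (0.089) or [SO3] replicate 1 (0.058). With [H], 0 of the 34 were called.

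The genes whose profile over the 12 cell libraries was most like that of Hey1 were Adamts15, Slitrk6, Fam180a, Cmklr1 and Rnf112. Likeness was the root mean square distance between log2 CPM centred per gene. It was 0.287 for Adamts15 and 0.387 for Rnf112, where the spread of Hey1 about its own mean was 1.11.

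**Figure D2:**
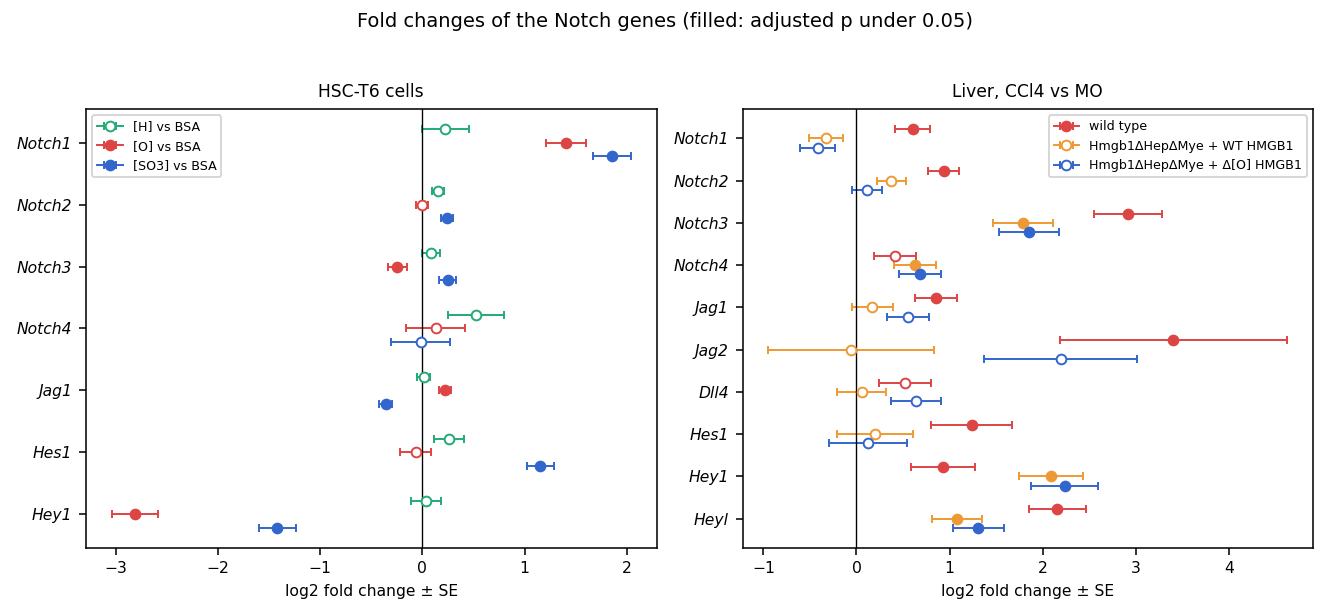
Log2 fold changes (x axis, ± SE) of the Notch genes in HSC-T6 cells against BSA (left) and in livers with CCl4 against MO (right). Filled points passed an adjusted p of 0.05. Notch1 and Hey1 lie on opposite sides of 0 with [O] and [SO3] in the cells, and Notch3, Hey1 and Heyl lie right of 0 in all 3 liver groups. The wide bar of Jag2 in WT rests on 2 counts with MO.

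In the livers of the second set, CCl4 for 4 weeks raised Notch3, Hey1 and Heyl in WT mice and in both kinds of deletion livers. In WT livers Notch1, Notch2, Jag1, Jag2 and Hes1 were called higher as well. Of the members, only Notch1 passed a direct test of the CCl4 response in deletion livers with WT HMGB1 against WT. The response with Δ[O] HMGB1 was not compared with that in WT. In whole liver, a change in the number of cells of a type and a change in RNA per cell cannot be told apart. Per kilobase of exon, Hes1 and Notch2 were the most abundant members in WT livers with MO (3.01 ± 0.734 and 2.9 ± 0.435 CPM per kb, mean ± SD, n = 3), and these did not differ beyond their spread. Notch1 followed (1.17 ± 0.213), then Jag1 (0.72 ± 0.161) and Dll4 (0.69 ± 0.224), which overlapped. Notch4 stood at 0.356 ± 0.0509, Hey1 at 0.174 ± 0.0392, Heyl at 0.149 ± 0.038 and Notch3 at 0.0931 ± 0.027 CPM per kb. Jag2 was lowest (0.00442 ± 0.00766). With CCl4 in WT livers the scale ran from Jag2 (0.0532 ± 0.0366, n = 4) to Hes1 (7.11 ± 1.55), and Notch3 (0.70 ± 0.143) took the sixth place, against the ninth with MO, beside Heyl (0.674 ± 0.173), which it did not differ from beyond the spread. With CCl4 in deletion livers with WT HMGB1 the most abundant were again Hes1 (7.63 ± 2.9) and Notch2 (5.3 ± 0.395). In the fibrosis livers with BSA, normalized apart from these, Notch2 was the most abundant (12.3 ± 3.34, n = 3), followed by Hes1 (7.71 ± 2.95) and Notch1 (4.6 ± 1.35).

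Among the receptors, Notch3 was 0.823, 0.929 and 0.508 CPM in the WT livers with MO and 5.59, 5.98, 6.93 and 4.14 CPM in those with CCl4. In deletion livers with WT HMGB1 it was 1.81, 1.51 and 1.74 CPM with MO and 4.86, 6.17, 6.63 and 5.72 CPM with CCl4. In deletion livers with Δ[O] HMGB1 it was 1.24, 1.25 and 2.63 CPM with MO and 4.21, 5.38, 4.68 and 10.8 CPM with CCl4. In WT livers and in both kinds of deletion livers, every CCl4 liver was above every MO liver. The log2 differences were 2.91 ± 0.36 (adjusted p = 3.7e-06), 1.79 ± 0.32 (0.00018) and 1.86 ± 0.32 (0.00037).

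Notch2 in WT livers went from 35.5, 32.1 and 26.2 CPM with MO to 59.8, 63.3, 59.1 and 57 CPM with CCl4, without overlap (0.94 ± 0.16, adjusted p = 0.00012). In the deletion livers the MO and CCl4 values overlapped. With WT HMGB1 they were 32.6, 37.8 and 61.6 CPM with MO and 58.1, 62.6, 54.8 and 52.9 CPM with CCl4 (0.37 ± 0.16, adjusted p = 0.059), and MO replicate 3 was the high one. Without that library Notch2 was called (0.70, adjusted p = 0.00022). With Δ[O] HMGB1 Notch2 was 46.7, 47.8 and 47.1 CPM with MO and 52.6, 46.6, 46.2 and 58.9 CPM with CCl4 (0.11 ± 0.16, adjusted p = 0.64).

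Notch1 was 20.1, 14.3 and 15.5 CPM in WT livers with MO and 21, 20.1, 25.1 and 35 CPM with CCl4. The lowest CCl4 liver and the highest MO liver nearly touched (0.60 ± 0.19, adjusted p = 0.014), and the call was lost without WT MO replicate 2 (0.074) or 3 (0.057). In the deletion livers the sign was negative and no call was made: -0.33 ± 0.19 with WT HMGB1 (adjusted p = 0.16) and -0.42 ± 0.19 with Δ[O] HMGB1 (0.11). There Notch1 was 21, 21.3 and 32.5 CPM with MO and 17.4, 19.4, 21.9 and 20.9 CPM with CCl4 under WT HMGB1, and 18.9, 22.7 and 26.3 and 15.3, 16.8, 16.9 and 19 CPM under Δ[O] HMGB1, with overlap in both.

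Notch4, mainly an endothelial receptor, was called higher with CCl4 in the deletion livers with WT HMGB1 (0.63 ± 0.22, adjusted p = 0.027) and with Δ[O] HMGB1 (0.68 ± 0.23, adjusted p = 0.034), and not in WT livers (0.41 ± 0.23, adjusted p = 0.14). With MO and CCl4 it was 2.1 to 2.63 and 2.74 to 4.32 CPM under WT HMGB1, and 1.81 to 3.0 and 2.69 to 4.81 CPM under Δ[O] HMGB1, where the ranges overlapped. The difference between these responses did not pass (deletion with WT HMGB1 minus WT, 0.22 ± 0.32, adjusted p = 0.70). The call with WT HMGB1 was lost without MO replicate 3 (adjusted p = 0.10) or CCl4 replicate 4 (0.059) or 5 (0.054). With Δ[O] HMGB1 it was lost in the fit of those groups alone (0.097), without MO replicate 1 (0.16) or 2 (0.12), and without CCl4 replicate 1 (0.052), 2 (0.058) or 5 (0.082). Endothelial markers summed to 173 to 191 CPM with MO and 204 to 261 CPM with CCl4 under WT HMGB1, where 6 of 10 were called higher and 1 lower. Under Δ[O] HMGB1 they summed to 177 to 184 and 195 to 249 CPM (3 higher, 0 lower), and in WT to 116 to 177 and 132 to 159 CPM (2 higher, 2 lower). Their part in the Notch4 result was not tested.

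Among the ligands, Jag1 in WT livers was 3.33, 5.19 and 4.06 CPM with MO and 6.02, 10.6, 7.62 and 5.94 CPM with CCl4, without overlap (0.85 ± 0.23, adjusted p = 0.0048). In the deletion livers Jag1 did not pass, at 0.17 ± 0.22 (adjusted p = 0.55) and 0.55 ± 0.22 (0.080), although with Δ[O] HMGB1 every CCl4 liver (5.15 to 8.98 CPM) was above every MO liver (4.22 to 4.76 CPM) and DESeq2 called it (0.047). Jag2, the other Jagged ligand, was near the limit of detection, at 0, 0 and 0.0924 CPM in WT livers with MO and 0.136, 0.249, 0.725 and 0.373 CPM with CCl4. WT livers with MO held 2 counts and those with CCl4 49, a ratio of 11.7 with an exact 95% counting interval of 3.08 to 99.6, which covers counting error only. It was called in WT (adjusted p = 0.028) and not without WT MO replicate 1 (0.11) or 2 (0.085). Dll4, a ligand of vascular endothelium, was 1.69 to 3.33 CPM with MO and 2.69 to 5.02 CPM with CCl4 in WT livers, which overlapped. It was not called in WT or in either kind of deletion livers, with differences of 0.52 ± 0.28, 0.06 ± 0.27 and 0.64 ± 0.27 (adjusted p = 0.13, 0.88 and 0.089).

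**Figure D3:**
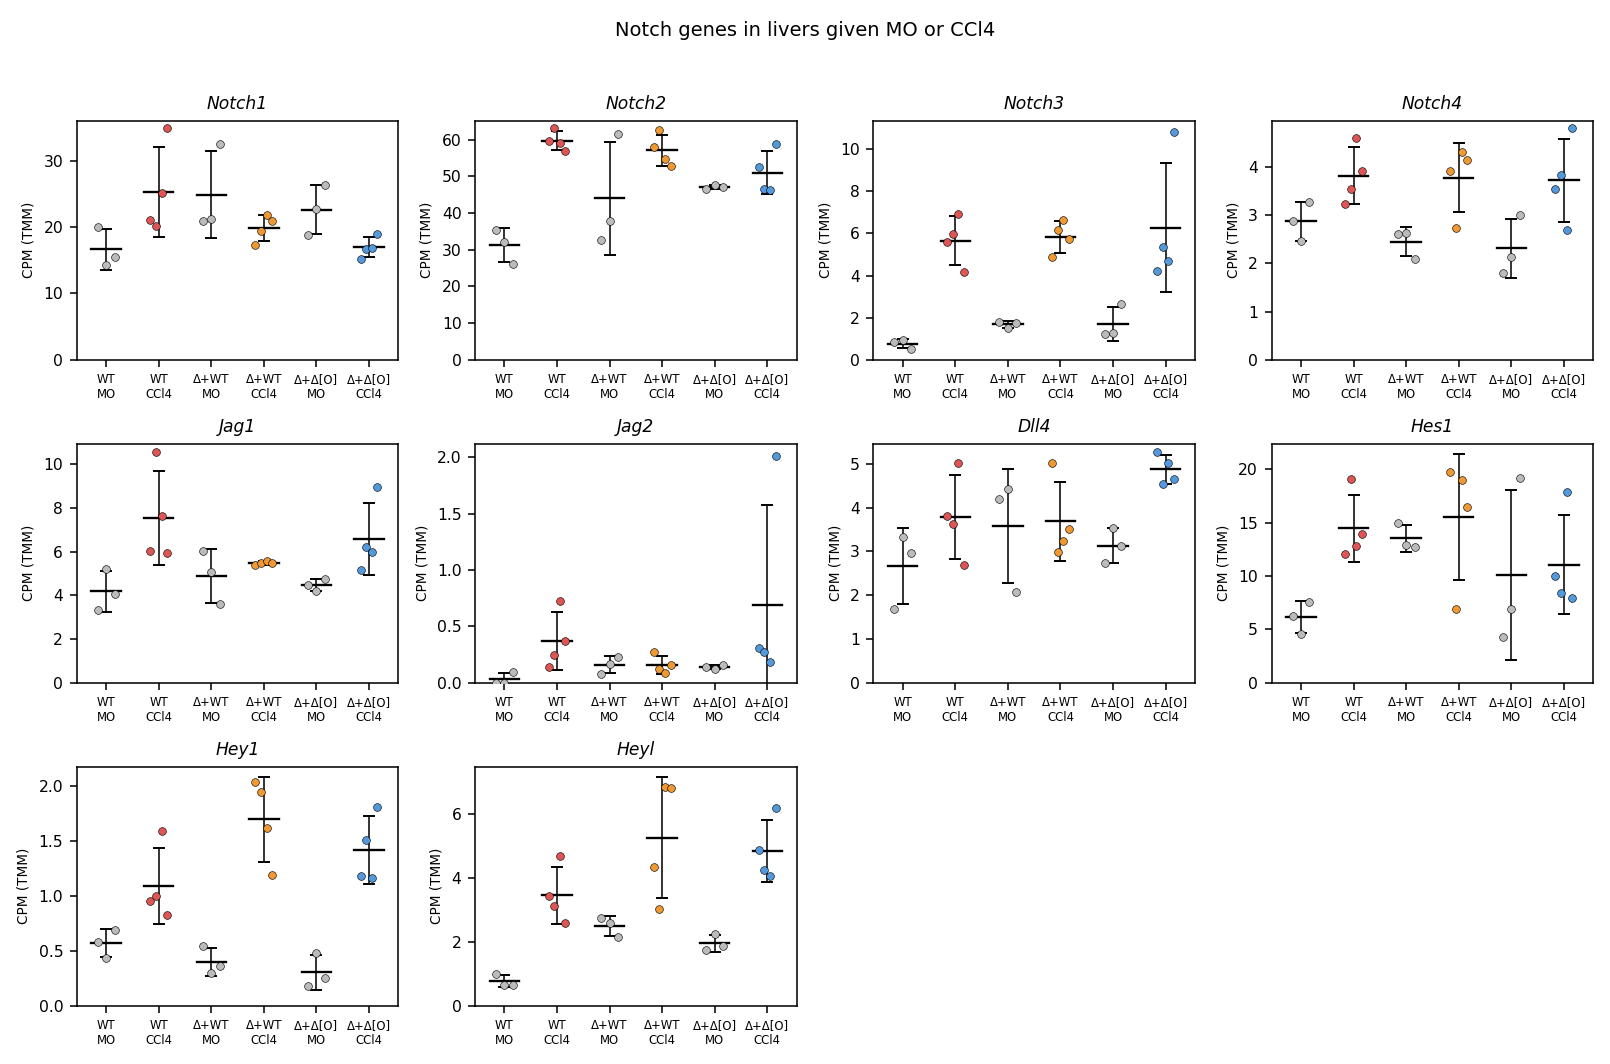
CPM (TMM scaled, linear axis from 0) of the 10 Notch genes in livers given MO or CCl4, in WT mice and in Hmgb1ΔHepΔMye mice given WT HMGB1 (Δ+WT) or Δ[O] HMGB1 (Δ+Δ[O]). Each point is a liver, the bar is the mean and the whisker 1 SD over 3 (MO) or 4 (CCl4) livers, with the Jag2 whisker stopped at 0. The CCl4 points of Notch3, Hey1 and Heyl lie above the MO points of the same mice and construct.

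Among the targets, Heyl was 0.987, 0.656 and 0.647 CPM in WT livers with MO and 3.42, 3.13, 4.67 and 2.58 CPM with CCl4 (2.16 ± 0.31, adjusted p = 1.7e-05). In deletion livers with WT HMGB1 it was 2.74, 2.59 and 2.15 CPM with MO and 4.34, 3.04, 6.84 and 6.81 CPM with CCl4 (1.08 ± 0.27, adjusted p = 0.0028). With Δ[O] HMGB1 it was 1.74, 2.25 and 1.85 and 4.88, 4.24, 4.04 and 6.19 CPM (1.31 ± 0.27, adjusted p = 0.0018). The MO and CCl4 livers overlapped in none of these comparisons.

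Hey1 in WT livers was 0.576, 0.437 and 0.693 CPM with MO and 0.949, 0.997, 1.59 and 0.821 CPM with CCl4 (0.93 ± 0.34, adjusted p = 0.030). That call was lost without WT MO replicate 1 (0.077) or 2 (0.11) or WT CCl4 replicate 3 (0.11). In deletion livers Hey1 was 0.54, 0.293 and 0.359 CPM with MO and 2.04, 1.94, 1.61 and 1.19 CPM with CCl4 under WT HMGB1 (2.09 ± 0.34, adjusted p = 6.9e-05). Under Δ[O] HMGB1 it was 0.177, 0.482 and 0.247 CPM with MO and 1.18, 1.51, 1.16 and 1.81 CPM with CCl4 (2.24 ± 0.36, adjusted p = 0.00017). No CCl4 liver overlapped the MO livers it was compared with. The direct test of a larger Hey1 response in the deletion livers with WT HMGB1 than in WT did not pass (1.16 ± 0.48, adjusted p = 0.12).

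Hes1 rose in WT livers from 6.21, 4.59 and 7.58 CPM with MO to 12.1, 19.1, 12.8 and 13.9 CPM with CCl4 (1.24 ± 0.44, adjusted p = 0.027), a call lost without WT MO replicate 1 (0.071) or 2 (0.10) or WT CCl4 replicate 2 (0.067). In the deletion livers its MO and CCl4 values overlapped, and the differences were 0.20 ± 0.41 (adjusted p = 0.72) and 0.12 ± 0.42 (0.86). With WT HMGB1 the MO livers already stood at 15, 12.9 and 12.7 CPM, all above the WT livers with MO.

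In all, 8 of 10 members were called higher and 0 lower in WT livers, beside 46.3% of all 14129 genes called and 22.8% called higher. The median member difference was 0.93, where the median of all genes was -0.00. Without WT MO replicate 1 the count was 5 and without WT MO replicate 2 it was 4, and the share of all genes called was not taken there. The WT livers with MO stood apart in TMM factor (0.775, 0.810 and 0.754), where every other liver of the set had at least 0.895. Their reads in several genes were 1.31, 1.42 and 1.66% of the gene counts, against at most 0.902% in any other liver. Whether this bears on comparisons with the WT livers with MO was not tested. In the deletion livers with WT HMGB1, 4 members were called, all higher, beside 47.3% of all genes called and 23.3% called higher (median of members 0.29, of all genes -0.03). With Δ[O] HMGB1, 4 were called, all higher, beside 24.2% and 12.9% (median of members 0.66, of all genes -0.04). DESeq2 called 8 members in WT livers, 5 with WT HMGB1 and 6 with Δ[O] HMGB1. These stand beside 42.6%, 42.4% and 23.6% of all genes with an adjusted p there.

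Markers of other cell types moved with the same contrast. All 8 activated stellate cell markers were higher with CCl4 in WT livers and in deletion livers with WT HMGB1, and 7 of 8 with Δ[O] HMGB1. Their sum was 40.8 to 96.6 CPM with MO and 319.7 to 749.9 CPM with CCl4 in WT, 75.2 to 96 and 1398 to 2063 CPM with WT HMGB1, and 55.2 to 119.7 and 467 to 1235 CPM with Δ[O] HMGB1. Of 8 vascular smooth muscle and pericyte markers, the cells Notch3 is best known from, 6, 6 and 5 were higher and 0 lower. These summed to 34.5 to 50.9 CPM with MO and 89.7 to 147 CPM with CCl4 in WT, 52.4 to 63.7 and 126 to 181 CPM with WT HMGB1, and 54 to 59.4 and 115 to 166 CPM with Δ[O] HMGB1. Cholangiocyte markers summed to 73.1 to 101 and 123 to 243 CPM in WT, 80.4 to 88 and 194 to 288 CPM with WT HMGB1, and 52.5 to 97.7 and 113 to 296 CPM with Δ[O] HMGB1, with 2, 1 and 2 of 6 tested called higher. No gene of these lists was at 0 in all livers. Macrophage markers were called higher for 2, 7 and 2 of 8 (lower for 3, 0 and 0), quiescent stellate cell markers higher for 4, 3 and 2 of 8 (lower for 2, 1 and 1), hepatocyte markers lower for 5, 5 and 1 of 8 (higher for 0), and T cell markers higher for 1, 0 and 0 of 7 (lower for 1, 0 and 1). The part of these cells in the Notch results was not tested.

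Under CCl4, 1 member had an unadjusted p under 0.05 between the Δ[O] and WT HMGB1 constructs, as did 15.1% of all genes. No member differed by edgeR or DESeq2 past the threshold, beside 2.31% of all genes called. The largest was Jag2 (2.02 ± 0.71, adjusted p = 0.16), where 1 liver decides the mean: it was 0.303, 0.273, 0.185 and 2.01 CPM with Δ[O] HMGB1, the high value being replicate 5. Between deletion livers with WT HMGB1 and WT livers, both with CCl4, 0 members were called by either tool (3 at an unadjusted p under 0.05, as were 40.2% of all genes), beside 28.8% of all genes called. Heyl (0.60 ± 0.24, adjusted p = 0.064), Hey1 (0.63 ± 0.27, 0.090) and Jag1 (-0.46 ± 0.20, 0.094) came nearest. Heyl was called without WT CCl4 replicate 3 (0.028) or deletion CCl4 replicate 3 (0.012), Hey1 without WT CCl4 replicate 3 (0.031) and Jag1 without WT CCl4 replicate 4 (0.046).

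The response to CCl4 itself differed between deletion livers with WT HMGB1 and WT livers for Notch1. It rose by 0.60 ± 0.19 in WT and was -0.33 ± 0.19 in the deletion livers, a difference of -0.93 ± 0.27 (adjusted p = 0.025). The WT livers with MO lay below every deletion liver with MO and WT HMGB1 in Notch1 (14.3 to 20.1 against 21 to 32.5 CPM), a difference between the MO groups that was not tested. The call was lost without WT MO replicate 2 (adjusted p = 0.081) or 3 (0.053) or deletion MO replicate 3 (0.069). This was 1 of 10 members, lower, beside 13.5% of all genes called and 6.64% called lower, and 7 members had an unadjusted p under 0.05, as did 28.1% of all genes. Between the Δ[O] and WT HMGB1 constructs the response differed for 0 members by edgeR and 0 by DESeq2, beside 0% of all genes (66 genes by DESeq2). At an unadjusted p under 0.05 there were 0 members, beside 14.8% of all genes.

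Among the 44 further pathway genes, 41 were tested in these livers. In WT livers 15 were higher and 5 lower with CCl4, beside 22.8% and 23.5% of all genes (median 0.23, all genes -0.00). Neurl1b, of the Neuralized family of ubiquitin ligases that act on Notch ligands, went from 0.699, 0.164 and 0.277 CPM to 4.75, 1.77, 4.64 and 1.57 CPM (3.00 ± 0.66, adjusted p = 0.0011), and its relative Neurl1a was also higher (2.24 ± 0.49). Nrarp, the feedback target, went from 0.411, 0.382 and 0.416 to 1.36, 2.1, 3.25 and 1.49 CPM (2.33 ± 0.42, adjusted p = 0.00018), and the ligand Dll1 rose by 1.09 ± 0.22. Numbl (1.67), Sox9 (1.45), Maml3 (1.40) and Aph1b (1.14), a gamma-secretase subunit, were higher too. Rbpj, picked after its values were seen, was not called (0.10).

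In deletion livers with WT HMGB1 13 further genes were higher and 4 lower, beside 23.3% and 24.0% of all genes (median 0.14, all genes -0.03), and with Δ[O] HMGB1 8 were higher and 2 lower, beside 12.9% and 11.4% (median 0.05, all genes -0.04). Neurl1b led by size among genes with more than a few counts, at 3.56 ± 0.54 and 3.57 ± 0.54, and stood at 15.3 to 22.2 and 5.87 to 31 CPM with CCl4. With WT HMGB1, Maml3 (1.90), Numbl (1.5), Lfng (1.44), the corepressor Ctbp2 (1.43) and Maml2 (1.29) rose and the gamma-secretase subunit Psenen fell (-1.15). With Δ[O] HMGB1, Dtx3 (0.75) and Maml2 (0.71) rose. Calls of Numbl (1.11), Ctbp2 (0.76), Dtx1 (-1.43) and Psenen (-0.50) there were each lost without 1 or more single livers, MO replicate 2 for all 4. Dlk1, a Delta-like protein without the usual receptor-binding part, was called in both deletion comparisons from very low counts. It was 0.0771, 0.0836 and 0.0512 CPM with MO and 0.213, 1.14, 0.294 and 0.344 CPM with CCl4 under WT HMGB1, and 0, 0 and 0.0309 and 0.606, 1.74, 0.264 and 0.236 CPM under Δ[O] HMGB1. The former call was lost without CCl4 replicate 3 (adjusted p = 0.092) or any 1 MO liver (0.051 to 0.072).

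Under CCl4, 9 further genes were higher and 4 lower in deletion livers with WT HMGB1 than in WT livers, beside 15.8% of all genes higher and 13.0% lower (median 0.06, all genes 0.02). Neurl1b (2.51 ± 0.44), Lfng (0.96), Psen2 (0.88) and Maml2 (0.73) were higher and Aph1b (-1.29) was lower. Also called were Dlk1 (higher), Neurl1a (-1.30) and Sox9 (-0.86), which lost the call without deletion CCl4 replicate 3 (Dlk1, adjusted p = 0.070, and Sox9, 0.082), WT CCl4 replicate 2 (Sox9, 0.12) or deletion CCl4 replicate 4 (Neurl1a, 0.060). Between the constructs only Lfng passed of the 41, lower with Δ[O] HMGB1 (-0.82 ± 0.21, adjusted p = 0.045), and it lost the call without deletion CCl4 replicates 1, 3, 4 or 5 with WT HMGB1 (up to 0.18) or replicates 1, 3 or 5 with Δ[O] HMGB1 (up to 0.16).

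**Figure D4:**
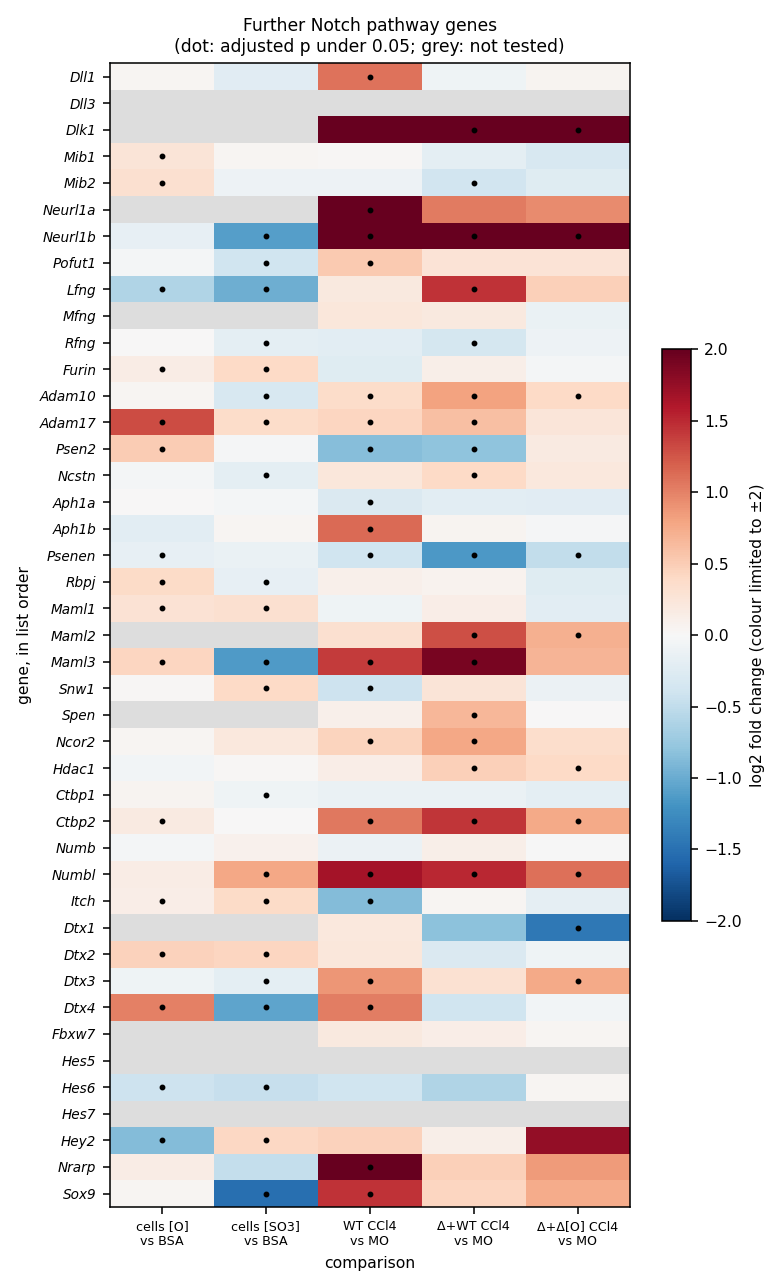
Log2 fold changes (colour, limited to ±2) of the further Notch pathway genes (rows, in list order, 1 gene left out) in 5 comparisons (columns). A dot marks an adjusted p under 0.05 and grey a gene not tested. Neurl1b is at the red limit in the 3 liver columns and is blue with [SO3] in the cells.

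The member with the largest called difference in these livers by the fitted value was Jag2. The genes most like it over the 21 livers were Gja5, a gap junction protein of arterial endothelium, Tead4, Podxl, Bmper and Grrp1. Their distances were 0.594 to 0.713, where the spread of Jag2 about its own mean was 1.06, a looser likeness than that of Hey1 to its neighbours in the cells.

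In the first set of livers, Notch2 and Jag1 were called lower in resolution with BSA than in fibrosis with BSA, calls that leaving out single livers ended, and no HMGB1 form or antibody changed a member past the threshold. Notch2 was 109.8, 174 and 114 CPM in the fibrosis livers with BSA and 68.1, 82.9 and 82 CPM in the resolution livers with BSA, without overlap (-0.77 ± 0.23, adjusted p = 0.048). Jag1 was 7.77, 33.7 and 7.76 CPM in fibrosis and 6.16, 5.59 and 5.02 CPM in resolution (-1.54 ± 0.45, adjusted p = 0.047), where fibrosis replicate 2 stood far above the other livers. Without that liver neither was called (Jag1 -0.47, adjusted p = 0.34, and Notch2 -0.52, 0.20). Leaving out resolution replicate 1, 2 or 3 also ended both calls (Jag1 0.12 to 0.14, Notch2 0.12 to 0.16), as did the fit of these groups alone.

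The 2 calls of 9 members tested stand beside 9.00% of all 13487 genes called and 6.60% called lower. The median member difference was -0.77, against -0.04 over all genes. Notch1 (43.8, 80.8 and 71.9 CPM in fibrosis, 36.4, 37.9 and 43.9 CPM in resolution) was -0.73 ± 0.28 (adjusted p = 0.092) and was called without fibrosis replicate 1, the lowest of its group (0.031). Notch3 (5.98 to 9.79 CPM against 3.97 to 4.73 CPM, without overlap) did not pass (-0.95 ± 0.47, adjusted p = 0.18), nor did Hes1 (-0.93 ± 0.42, 0.14) or Hey1 (-0.90 ± 0.46, 0.19). Activated stellate cell markers summed to 287 to 1498 CPM in fibrosis and 159.7 to 261 CPM in resolution with BSA, with 0 of 8 higher and 5 lower, and cholangiocyte markers to 145 to 231 and 98.1 to 132 CPM (0 higher and 2 lower of 6 tested). Vascular smooth muscle and pericyte markers summed to 92.3 to 129 and 43.4 to 56.6 CPM, without overlap (0 higher and 1 lower of 7 tested). Their part in the Notch results was not tested.

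**Figure D5:**
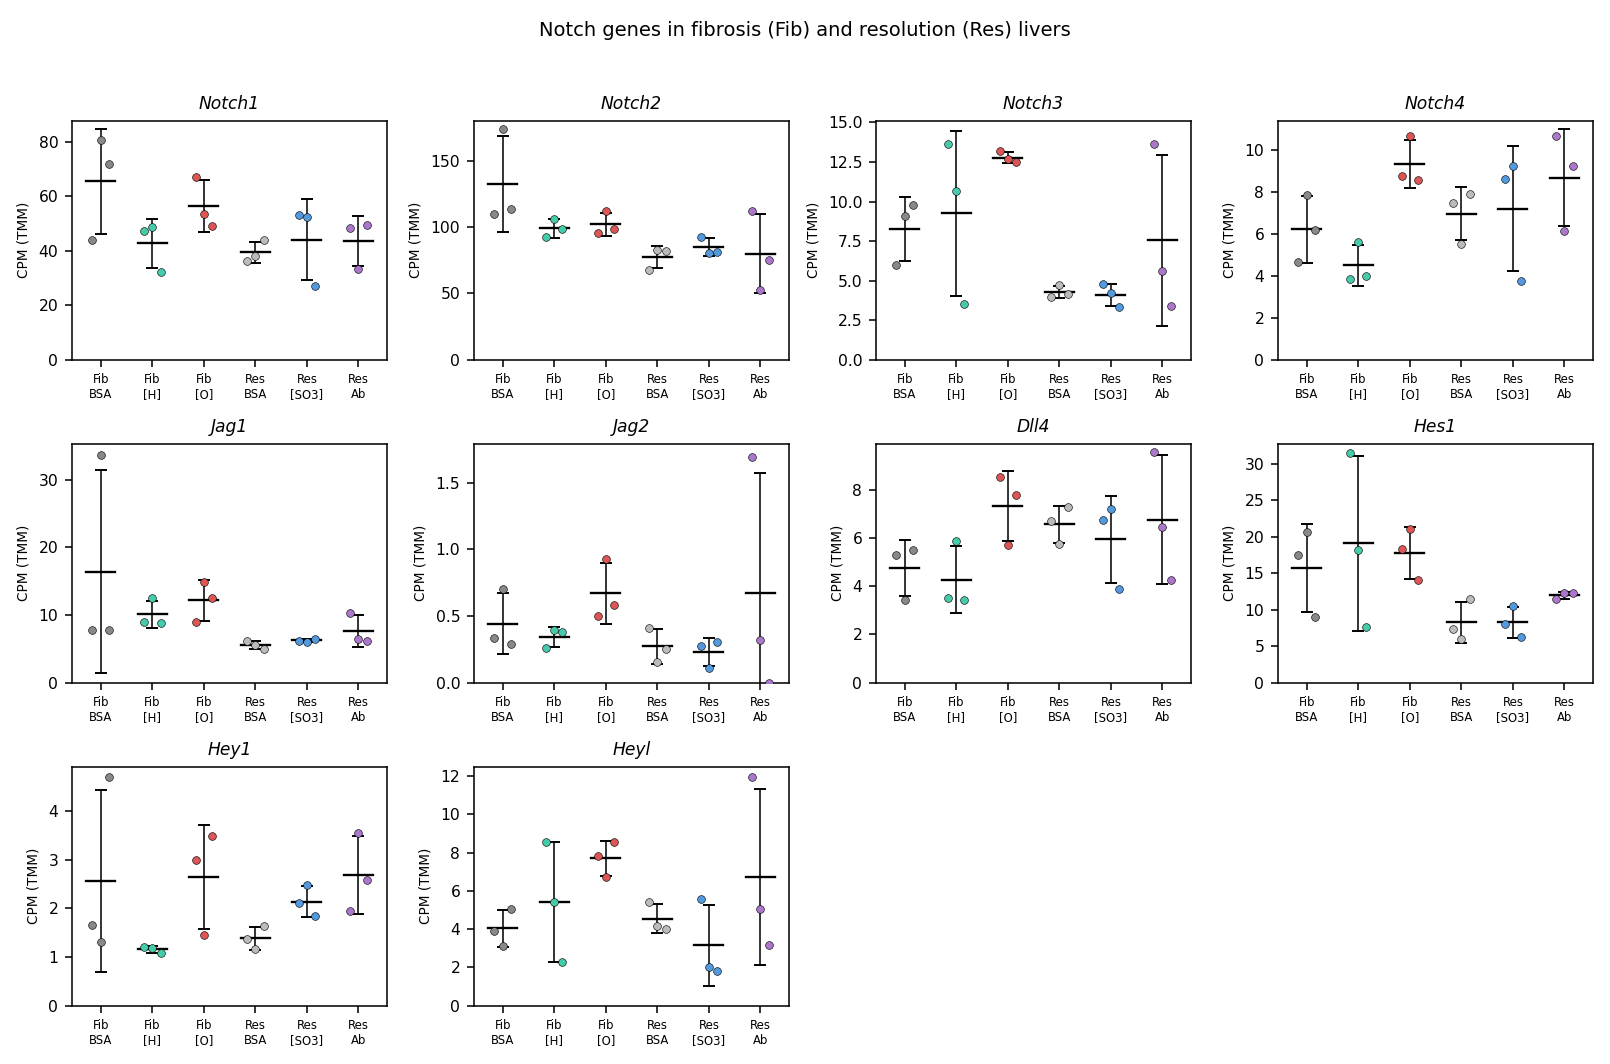
CPM (TMM scaled, linear axis from 0) of the 10 Notch genes in fibrosis livers (Fib; CCl4 for 4 weeks with BSA, [H] or [O] HMGB1) and resolution livers (Res; 1 week of regression with BSA, [SO3] HMGB1 or an HMGB1 antibody, Ab). Each point is a liver, the bar is the mean and the whisker 1 SD over 3 livers, with the Jag2 whisker stopped at 0. One fibrosis liver with BSA holds the highest Jag1, 33.7 CPM.

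With [H] or [O] HMGB1 during CCl4, 0 of 9 members were called against BSA by edgeR or DESeq2, beside 0% of all genes in each comparison by edgeR (8 and 6 genes by DESeq2, and 1448 and 727 genes at an unadjusted p under 0.05). At an unadjusted p under 0.05 there were 2 and 0 members. Between [O] and [H] livers 0 members were called by either tool, beside 0% of all genes (274 by DESeq2 and 1413 at an unadjusted p under 0.05), and 3 members had an unadjusted p under 0.05. These were all higher with [O]. Notch4 was 3.86, 5.6 and 4.01 CPM with [H] and 8.75, 10.6 and 8.55 CPM with [O], without overlap (1.05 ± 0.33, adjusted p = 0.19). Hey1 was 1.2, 1.19 and 1.08 and 2.99, 1.45 and 3.5 CPM, also without overlap (1.19 ± 0.46, adjusted p = 0.31), and Dll4 overlapped (0.78 ± 0.34, 0.41). Endothelial markers summed to 149 to 334 CPM with [H] and 365 to 461 CPM with [O]. The sums with [H] and [O] were 183 to 363 and 1117 to 1264 CPM for activated stellate cells, 41.1 to 107 and 134 to 164 CPM for vascular smooth muscle and pericytes, 749 to 959 and 1461 to 1657 CPM for macrophages, and 333 to 458 and 537 to 672 CPM for quiescent stellate cells. For these 5 lists the [O] livers all lay above the [H] livers. The sums overlapped for cholangiocytes (151 to 296 and 252 to 377 CPM), hepatocytes (30190 to 35729 and 22892 to 36982 CPM) and T cells (6.72 to 11.2 and 8.61 to 14.5 CPM). In this comparison 0 markers of any list were called, and the part of these cells was not tested.

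During resolution, neither [SO3] HMGB1 nor the antibody called a member against BSA by edgeR or DESeq2, with 0 members at an unadjusted p under 0.05 in both and 0% of all genes called by edgeR in both (81 and 3 genes by DESeq2, and 812 and 279 at an unadjusted p under 0.05). Hey1 was 1.37, 1.16 and 1.63 CPM with BSA, 2.1, 2.47 and 1.83 CPM with [SO3] and 1.95, 3.54 and 2.58 CPM with the antibody. Both treated groups lay above BSA without overlap, but the differences did not pass (0.63 ± 0.47, adjusted p = 0.99, and 0.96 ± 0.46, 1.0). Hes1 with the antibody was 11.4, 12.2 and 12.3 CPM against 7.39, 5.97 and 11.4 CPM with BSA (0.55 ± 0.42, adjusted p = 1.0), with the highest BSA liver at the level of the lowest antibody liver. Jag2 was too low to test in these livers, at 0 to 1.7 CPM over the antibody livers.

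Of the further pathway genes 39 were tested in these livers, and 0 were called in the 5 comparisons of treatments. Between resolution and fibrosis with BSA, 1 was higher and 3 lower, beside 2.40% and 6.60% of all genes (median -0.12, all genes -0.04). Sox9 was 26.8, 522 and 22.8 CPM in fibrosis and 10.5, 16.1 and 15.3 CPM in resolution (-3.77), so the same replicate 2 decided it (-0.83 without it, adjusted p = 0.50). Neurl1b was 7.57, 1.11 and 58.7 and 0.89, 1.47 and 1.0 CPM (-4.31), and there replicate 3 decided (-1.96 without it, adjusted p = 0.14). Neurl1a (3.65, 4.12 and 2.32 against 0.89, 0.853 and 1.0 CPM, -1.87) and Psen2 (176, 49.5 and 201 against 436, 425 and 320.2 CPM, 1.47) did not overlap between stages, yet both lost the call without fibrosis replicate 2 or any 1 resolution liver.

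The genes most like Jag1 over these 18 livers were Nle1, Myh9, Stom, Ctdp1 and Snhg17, at distances of 0.197 to 0.256, where the spread of Jag1 about its own mean was 0.636. That spread comes largely from the 1 fibrosis liver with 33.7 CPM.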

How the data were processed

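RNA-seq libraries (51, in 3 tables) were made with a TruSeq stranded mRNA kit, per the labels' protocols. The authors deposited raw whole-number read counts per gene, and the build mm10 is named for all libraries, the rat cells included, per the submitters' processing notes. The sources used here do not give the aligner, the counter, the annotation or the strand setting, and how rat reads met a mouse build is not stated. Rows for reads in no gene (32.0 to 35.2% of the gene counts in the cells, 5.50 to 8.51% in the MO and CCl4 livers) or in several genes (0.282 to 0.325% and 0.579 to 1.66%) were left out. Every column of values matched a sample, and no pair of libraries of a group was identical or agreed within sampling noise.

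Counts were fitted per table with edgeR 4.0.16 (R 4.3.3): filterByExpr (minimum count 10, minimum total 15), TMM factors, 1 term per group, all groups of the table in 1 robust quasi-likelihood fit, and Benjamini-Hochberg adjustment over all genes tested. The standard error is the log2 fold change divided by the square root of F. CPM used the TMM library sizes, and log2 CPM for likeness a prior count of 2. Alternatives were DESeq2 1.42.0, DESeq2 size factors in edgeR, no filter, the groups compared alone, the replicate number as a block, and each library left out. The method was tested on simulated data. Responses to CCl4 were compared by contrasts between differences. All 10 members are named in each of the 17 comparisons, and of 44 further pathway genes at most the 8 called with the largest difference, except 1 gene that is not reported here. The members, the pathway lists and the 8 marker lists were chosen with earlier results of these data known. Gene positions are from GENCODE vM21 and promoter windows from RefSeq (GRCm38.p6). Levels per kilobase were divided by all exon bases annotated for a gene over all its transcripts. The order of the members by these levels therefore depends on the annotation too. The AP-1 and GC box motifs were added after the others gave no match.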

Additional observations from a re-analysis of the deposited data

Results flagged for a closer look

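Jag2 was 2.01 CPM in replicate 5 of the deletion livers with Δ[O] HMGB1 and CCl4, while the other 3 livers of that group were between 0.185 and 0.303 CPM. The gap exceeded the 95% limit of Dixon's test. In the deletion livers with WT HMGB1 and CCl4, Dlk1 in replicate 3 (1.14 CPM, the others 0.213 to 0.344) and Lfng in replicate 4 (11.7 CPM, the others 9.49 to 9.87) exceeded it as well. These were 3 of 84 groups of values examined, and chance alone marks about 1 in 20.

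The response of Notch1 to CCl4 was -0.93 on the log2 scale in deletion livers with WT HMGB1 relative to WT livers, by a test of the difference itself (adjusted p = 0.025). By the same test the response was lower in those deletion livers for Nrarp (-1.85, adjusted p = 0.030), Dtx4 (-1.43, 0.0048), Dll1 (-1.18, 0.012), Aph1b (-1.08, 0.031) and Psenen (-0.74, 0.036). It was higher for Lfng (1.25, 0.017), Maml2 (0.96, 0.020) and Itch (0.91, 0.0063). In this test 13.5% of all genes were called. In Dll1 and Nrarp the deletion livers with MO and WT HMGB1 already stood above the WT livers with MO, a difference that was not tested. Calls of Dtx4, Dll1 and Itch held in every alternative and without each liver, and those of Nrarp, Aph1b, Psenen, Lfng and Maml2 were each lost without 2 or more single livers.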

How the results depend on the processing

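No direction of a called result reversed under any alternative run. The calls of Notch1 and Hey1 with [O] and [SO3] against BSA, Hes1 with [SO3], Jag1 in the cells, Notch3 and Heyl in all 3 CCl4 comparisons, Hey1 in both kinds of deletion livers, and Notch2 and Jag1 in WT livers held in every one. The larger changes in the number of members called were as follows. For [H] against BSA it was 1 (Notch2, 0.15, adjusted p = 0.042) when only the groups compared were fitted. For resolution against fibrosis it was 0 with no filter, 0 with the groups compared alone, and 0 to 3 with 1 liver left out. For CCl4 against MO in WT it was 4 to 9 with 1 liver left out. For deletion livers with WT HMGB1 against WT under CCl4 it was 0 to 2 with 1 liver left out. For the response of deletion livers with WT HMGB1 against WT it was 2 with the groups compared alone and 0 to 2 with 1 liver left out, and for the response with Δ[O] against WT HMGB1 it was 0 to 1 (Notch2, -0.58, without the deletion MO replicate 3 with WT HMGB1). DESeq2 called 3 members for [O] against BSA, beside 34.8% of all genes with an adjusted p. For CCl4 against MO it called 5 in deletion livers with WT HMGB1 and 6 with Δ[O] HMGB1. The main fit called 4 in each of these comparisons. Small changes in other fits are not listed. The cause was not tested, and apart from DESeq2 the share of all genes called was not taken in these fits. Where leaving out 1 library left a group with 2, its spread was taken from the whole fit.

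The labels do not say whether the replicate numbers pair the samples. Same-numbered libraries deviated from their group means with correlations of -0.182 to 0.0716 over 18 pairs in the cells (median -0.0076). The correlations were -0.446 to 0.708 over 45 pairs (median 0.0418) in the first set of livers and -0.252 to 0.454 over 42 (0.0455) in the second. Between differently numbered libraries they were -0.114 to 0.126 (median 0.0134), -0.586 to 0.341 (-0.0413) and -0.385 to 0.475 (-0.0220). These ranges overlap and do not settle whether the numbers pair. With the replicate number as a block, the members called were 0 for resolution against fibrosis, 1 for deletion livers with WT HMGB1 against WT under CCl4 (Notch1, -0.41, adjusted p = 0.035) and 2 for the response of those livers against WT (with Heyl, -1.29, 0.041). The block also gave Notch1 a call in both kinds of deletion livers (-0.53 and -0.47) and ended those of Hes1 in WT (0.051) and of Notch4 in the deletion livers (0.12 and 0.075). Low counts limit Jag2 in all livers and Heyl and Dll4 in the cells. Group sizes of 3 or 4 limit the rest.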

Other observations

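Among the livers with MO, several Notch genes had ranges that did not overlap between WT mice and deletion mice given WT HMGB1. Heyl was 0.647 to 0.987 CPM in the former and 2.15 to 2.74 CPM in the latter, Notch3 0.508 to 0.929 and 1.51 to 1.81 CPM, and Hes1 4.59 to 7.58 and 12.7 to 15 CPM. Dll1, a ligand, was 2.51, 1.75 and 2.49 CPM in WT and 8.71, 8.19 and 5.87 CPM in deletion livers with MO, and Nrarp 0.411, 0.382 and 0.416 and 2.16, 1.92 and 0.641 CPM. Of the other members, Notch1 did not overlap either, while Notch2, Notch4, Jag1, Jag2, Dll4 and Hey1 overlapped between these groups. The share of all genes without overlap was not computed, so these values do not set the Notch genes apart. The genes were picked after their values were seen, and the difference between MO groups was not tested. The WT livers with MO also stood apart in TMM factor and in reads in several genes, and the part of this was not tested.

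Replicate 2 of the fibrosis livers with BSA held 33.7 CPM of Jag1 (the other 2 livers 7.77 and 7.76), 522 CPM of Sox9 (26.8 and 22.8), 60.2 CPM of Rbpj (25.0 and 24.9) and 49.5 CPM of Psen2 (176 and 201). Its marker sums were the highest of its group for endothelium (582 CPM, the others 317 and 434), quiescent stellate cells (953, the others 499.8 and 569), vascular smooth muscle and pericytes (129, the others 92.3 and 97.9) and macrophages (1684, the others 1061 and 1424). The sums for hepatocytes (34249, the others 30465 and 29249) and T cells (15.1, the others 8.57 and 14.1) were the highest as well. Those for cholangiocytes (145, the others 178 and 231) and activated stellate cells (287, the others 345 and 1498) were the lowest. The part of these in the gene values was not tested. Replicate 5 of the deletion livers with Δ[O] HMGB1 and CCl4 held the highest value of its group for each member except Dll4 and Hes1, among them Jag2 (2.01 CPM), Notch3 (10.8 CPM), Jag1 (8.98 CPM) and Notch2 (58.9 CPM). The share of all genes highest in this liver was not computed, so these values do not set the Notch genes apart. The TMM factor of this liver was 0.942 and those of the other 3 livers 1.09 to 1.14. Lowest there were the marker sums of activated stellate cells (467 CPM, the others 885 to 1235), cholangiocytes (113, 168 to 296) and macrophages (417, 520 to 934). Highest there were those of hepatocytes (122849, the others 97022 to 104973), vascular smooth muscle and pericytes (166, 115 to 142) and T cells (10.5, 5.28 to 7.21). The endothelial and quiescent stellate cell sums lay between. The part of these was not tested.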
